A study of Mus musculus with 11 samples.

Results

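The complement components and receptors C1qa, C1qb, C1qc, C3, C4b, C3ar1, C5ar1, Cfp and Itgam were followed in mouse microglia across 11 single-colour arrays. The 9 genes were chosen by name, with earlier results of these data known. Each was found through the RefSeq accession that the scanner files give for a probe, and all 9 had a probe and were among the 19565 genes tested. C4b had 3 probes and each other gene had 1. All mice were C57BL/6N, with no transgene or deletion in any group. Adult female mice gave microglia that were sorted by flow cytometry and lysed without culture (A_FACS, n = 2). Newborn pups of both sexes gave microglia sorted in the same way (NB_FACS, n = 3), through a gate for high CX3CR1 and intermediate CD45. Other newborn brain cells were grown together in flasks. The flasks were fed with 20% L-929 conditioned medium at times between day 8 and day 29 after isolation. Microglia were collected from them by shaking for 5.5 h, weeks after isolation, and kept for a day in serum medium. They had either no added cytokines (NB_Control, n = 3) or human TGFβ, IL34 and CX3CL1 at 100 ng/mL each (NB_Stim, n = 3). Age, sex and the way the animals were killed cannot be told apart between A_FACS and the newborn groups. The study's methods state that adults were killed with carbon dioxide and then perfused through the heart. Newborns were decapitated, and no perfusion is named for them. Culture cannot be told apart from the way the cells were isolated, or from the weeks since isolation, between NB_Control or NB_Stim and the sorted groups.

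Complement is a cascade of serum proteins that tags surfaces for removal and calls in immune cells. C1q, built from the chains of C1qa, C1qb and C1qc, opens the classical route, C4 and C3 are cleaved further down, and properdin, the product of Cfp, stabilises the enzyme of the alternative route that cleaves C3. The fragments C3a and C5a act through the receptors encoded by C3ar1 and C5ar1, and the integrin chain encoded by Itgam pairs with that of Itgb2 to form complement receptor 3, which binds cleaved C3. Microglia are a main source of C1q in the brain, and C1q, C3 and complement receptor 3 are known for their part in the removal of synapses during development.

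Every value below is a log2 signal intensity after quantile normalisation, given per array in the order of the replicate numbers, and a difference is between group means on that scale. The threshold for calling a gene was 0.05 on the adjusted p of limma's moderated test, with all 19565 genes in the adjustment. Between 66.8% and 80.5% of probes were well above background on an array, and the number of arrays limits the precision. Slide 2 held replicate 3 of NB_FACS, NB_Control and NB_Stim, and slide 1 held 8 arrays. Within NB_Control, replicates 1 and 2 lay a mean of 0.172 apart over all genes and replicate 3 lay 0.411 and 0.406 from them, and in NB_Stim the same distances were 0.19, 0.476 and 0.499. The study's methods count samples as independent biological replicates, but no label ties a replicate to an animal or a culture, so the p-values measure the spread between these samples, which may be in part technical. All 9 microglial markers with a probe were well above background on every array of every group, and their summed signal was 189000 to 206000 in NB_FACS, 76100 to 88400 in NB_Control, 173000 to 182000 in NB_Stim and 303000 to 318000 in A_FACS. In bulk RNA, fewer cells of a type and less RNA per cell cannot be told apart.

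**Figure D1:**
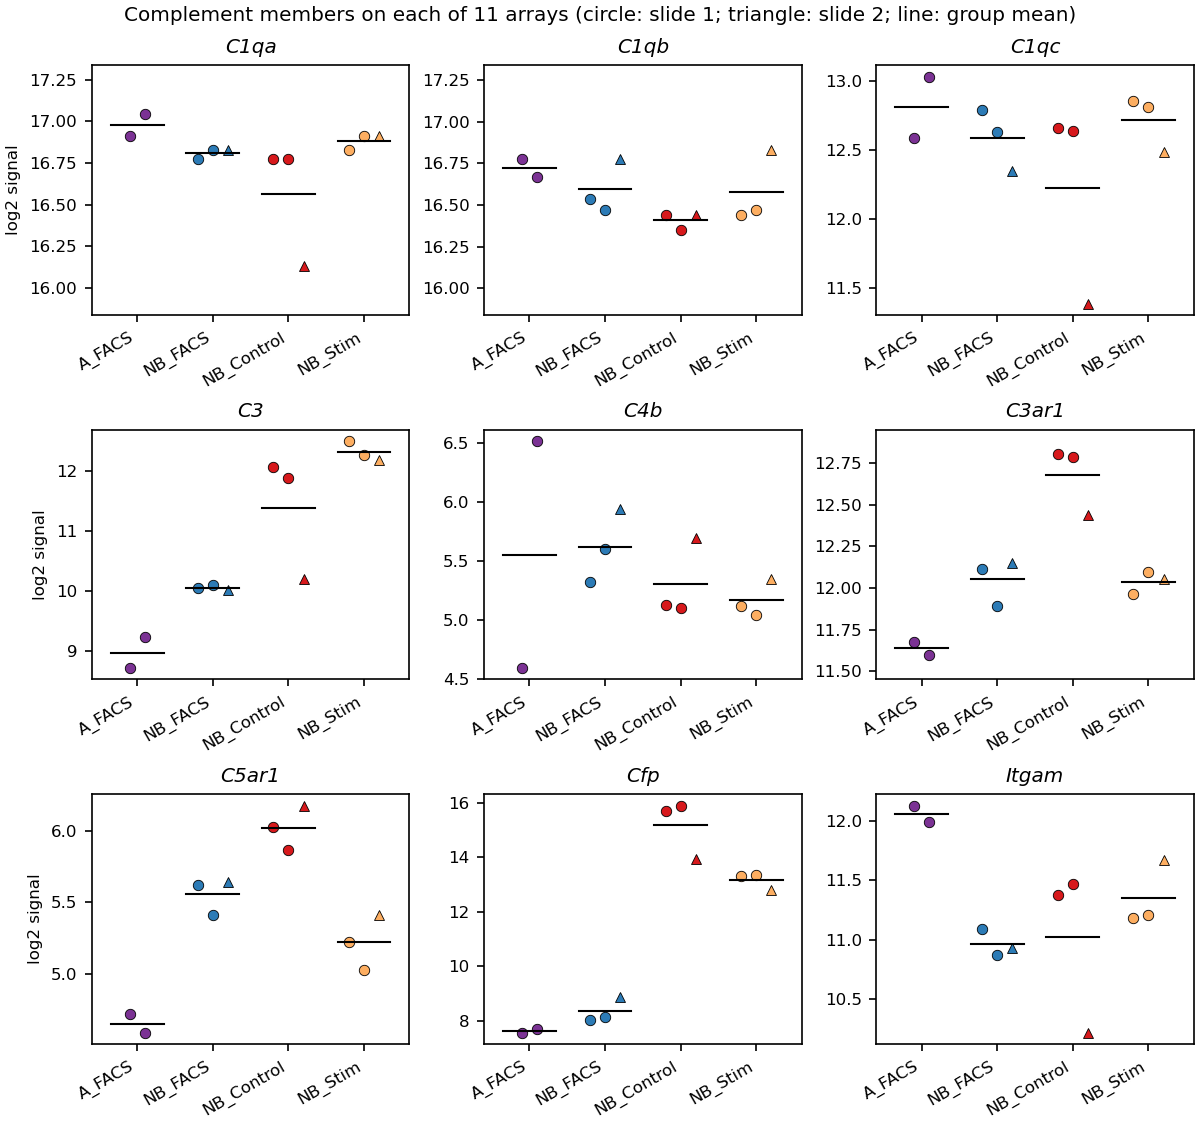
Log2 quantile-normalised signal of the 9 genes (y axis, a range of its own in each panel) on each array of the 4 groups (x axis), with circles for slide 1, triangles for slide 2 and a line at each group mean. Cfp spans 7.56 to 15.90 over the arrays, while C1qa stays between 16.13 and 17.05, and NB_Control replicate 3 lies below the other NB_Control arrays for C1qa, C1qc, C3, C3ar1, Cfp and Itgam.

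The C1q chains differed little between the groups, and none was called in any comparison. C1qa, which encodes the A chain, was 16.91 and 17.05 in A_FACS, 16.78, 16.83 and 16.83 in NB_FACS, 16.78, 16.78 and 16.13 in NB_Control, and 16.83, 16.91 and 16.91 in NB_Stim. C1qb, which encodes the B chain, was 16.78 and 16.67 in A_FACS, 16.54, 16.47 and 16.78 in NB_FACS, 16.44, 16.35 and 16.44 in NB_Control, and 16.44, 16.47 and 16.83 in NB_Stim. C1qc, which encodes the C chain, was 12.59 and 13.03 in A_FACS, 12.79, 12.63 and 12.35 in NB_FACS, 12.66, 12.64 and 11.39 in NB_Control, and 12.86, 12.81 and 12.49 in NB_Stim. The groups overlapped for C1qc in every comparison of newborn cells, and the low arrays of C1qa and C1qc were both NB_Control replicate 3. The F test over the 4 groups gave adjusted p-values of 0.278 for C1qa, 0.402 for C1qb and 0.458 for C1qc. The difference between NB_Control and NB_FACS was -0.25 for C1qa (95% interval -0.64 to 0.14), -0.19 for C1qb (-0.51 to 0.14) and -0.36 for C1qc (-1.08 to 0.36). In the same comparison Tmem119, a marker of resting microglia, was lower by -3.68 (adjusted p 1.72e-06) and P2ry12, a purine receptor, by -6.44 (adjusted p 1.02e-06). Whether the C1q genes differed from these in their response was not tested.

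The probes of C1qa and C1qb were among the brightest on the arrays. C1qa ranked between 3 and 34 of 59899 probes and C1qb between 6 and 20, while C1qc ranked between 1051 and 3363. Quantile normalisation gives probes of equal rank the same value on every array, so the values of C1qa and C1qb come from a short ladder of shared values. Scaled instead to the 75th percentile of each array, C1qa lay at 9.01 and 8.76 in A_FACS, 8.87, 8.72 and 8.54 in NB_FACS, 8.53, 8.40 and 8.13 in NB_Control, and 8.82, 8.94 and 8.79 in NB_Stim, in log2 units above that percentile. On this scale NB_Control was below each other group without overlap, and the difference of A_FACS from NB_Control, 0.53, passed the test (adjusted p 0.0308), where it was 0.42 (adjusted p 0.117) after quantile normalisation. The difference of NB_Control from NB_FACS was larger on this scale for C1qa (-0.36 against -0.25) and C1qb (-0.28 against -0.19), without a call. So was that of NB_Stim from NB_Control, at 0.50 against 0.32 for C1qa and 0.26 against 0.17 for C1qb, also without a call. Both were smaller for C1qc (-0.32 against -0.36, and 0.22 against 0.49). Some adult differences were smaller too, as for C1qa between A_FACS and NB_Stim (0.03 against 0.09), or C1qb between A_FACS and NB_FACS (0.03 against 0.13). For C1qb between A_FACS and NB_Control the values were 0.31 against 0.32. C1qb was called in that last comparison with the replicate number as a block (0.39, adjusted p 0.0328, against 0.15 without the block). No other comparison of a C1q gene was called under any of the 23 other settings tried.

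The C1q genes lie side by side on mouse chromosome 4 in the order C1qb, C1qc, C1qa, between Ephb2 and Epha8. Promoters of this pair of neighbours without a call are shown to be set beside those of Cfp and C3, further on, which were higher in culture. The windows span the RefSeq gene start in GRCm38.p6, printed 5′ to 3′ on the strand of the gene. C1qb lies at chr4:136886151-136886450 (minus strand) and C1qc at chr4:136892865-136893164 (minus strand). Capitals mark matches, on either strand, to 4 short motifs: GAGGAAGT for PU.1, a factor of myeloid cells, TTGCNNAA for C/EBP factors, TGANTCA for AP-1 and, for NF-kB, GGGA and TCC with 3 free bases between them.
C1qb promoter: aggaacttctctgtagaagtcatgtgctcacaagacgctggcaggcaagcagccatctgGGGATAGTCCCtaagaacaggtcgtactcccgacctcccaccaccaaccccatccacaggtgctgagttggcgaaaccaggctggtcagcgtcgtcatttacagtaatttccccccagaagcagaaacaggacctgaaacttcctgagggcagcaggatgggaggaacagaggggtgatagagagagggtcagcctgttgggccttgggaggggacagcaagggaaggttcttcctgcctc
C1qc promoter: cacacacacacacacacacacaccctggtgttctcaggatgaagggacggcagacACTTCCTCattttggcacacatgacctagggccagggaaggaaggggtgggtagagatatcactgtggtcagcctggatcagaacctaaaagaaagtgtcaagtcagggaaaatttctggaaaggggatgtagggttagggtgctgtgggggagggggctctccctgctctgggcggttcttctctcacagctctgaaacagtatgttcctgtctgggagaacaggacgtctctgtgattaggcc
The C1qb window held 2 overlapping matches to the NF-kB letters, which 4.61% of 32544 promoter windows hold. The C1qc window held 1 match to the PU.1 letters, which 3.11% of the windows hold. A match describes letters only, and the matches were not tested for binding. Promoter windows were matched for 7 of the 9 genes, and C1qa and C4b were not among them.
The probe of C1qc is 45 bases long and shares at most 17 bases in a row with a probe of another gene.
C1qc probe: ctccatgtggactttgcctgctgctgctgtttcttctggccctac

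C4b, the mouse gene for complement C4, was dim, and none of its differences was called. Its mean over 3 probes was 4.59 and 6.52 in A_FACS, 5.32, 5.60 and 5.94 in NB_FACS, 5.12, 5.10 and 5.69 in NB_Control, and 5.12, 5.04 and 5.34 in NB_Stim. The adult arrays lay at both ends of the whole range, so that A_FACS overlapped each newborn group. The F test gave an adjusted p of 0.749. The direction against adult cells turned on single arrays. Without A_FACS replicate 1 the adult value was above NB_Control by 1.21 (adjusted p 0.0225) and above NB_Stim by 1.35 (adjusted p 0.0157), and without A_FACS replicate 2 these differences were -0.72 and -0.58. The probes are shown because C4a, a near copy of C4b, could share signal with them.
C4b probe MMXS12078: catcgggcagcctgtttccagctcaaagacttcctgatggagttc
C4b probe MMXS22436: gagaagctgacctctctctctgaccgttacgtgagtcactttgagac
C4b probe MMXS52153: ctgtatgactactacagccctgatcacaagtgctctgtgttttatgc
C4a probe MMXS22711: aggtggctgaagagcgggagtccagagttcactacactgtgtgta
The C4a probe matched no C4b probe in more than 17 bases of an ungapped alignment, and none of the 4 shared 16 bases in a row with a probe of another gene. The C4a probe did not pass the filter on dim probes. Whether C4a transcripts bind the C4b probes was not tested, because the transcripts were not used here. Probe MMXS12078 was 6.70 ± 0.118 (SD, n = 3) in NB_FACS, 6.05 ± 0.437 in NB_Control and 5.51 ± 0.53 in NB_Stim, and spread most in A_FACS at 6.63 ± 1.90 (n = 2). Probe MMXS22436 was 5.71 ± 0.427, 5.84 ± 0.246, 5.63 ± 0.067 and 5.65 ± 0.79 in the same order. Probe MMXS52153 was at 4.03 to 4.45 in the group means and was not well above background on 1 adult array.

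C3, which encodes the central component that every route cleaves, was higher in cultured than in sorted cells. It was 8.72 and 9.23 in A_FACS, 10.05, 10.11 and 10.02 in NB_FACS, 12.06, 11.89 and 10.20 in NB_Control, and 12.50, 12.27 and 12.19 in NB_Stim. The 4 groups did not overlap and lay in that order from low to high, although NB_Control replicate 3 lay just above the sorted newborn cells. NB_Stim exceeded NB_FACS by 2.26 (SE 0.41, 4.79-fold, adjusted p 0.0023), a call kept under each of 23 other settings. NB_Control exceeded NB_FACS by 1.32 (SE 0.41, 2.50-fold, adjusted p 0.0352). This call was lost under 10 of the 23 settings, which included leaving out A_FACS replicate 1 (1.33), NB_FACS replicate 1 (1.32), 2 (1.34) or 3 (1.30), NB_Control replicate 1 (0.98) or 2 (1.07), or NB_Stim replicate 2 (1.33), and the difference was 1.91 without NB_Control replicate 3. Between NB_Stim and NB_Control the difference was 0.94 (SE 0.41, 95% interval 0.02 to 1.86, adjusted p 0.319), and it fell to 0.35 without NB_Control replicate 3. In A_FACS C3 was -1.08 from NB_FACS (adjusted p 0.124), which was called with the replicate number as a block (-1.31, adjusted p 0.0466) and without NB_Control replicate 3 (-1.08, adjusted p 0.00329).

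The summed signal of fibroblast markers, like C3, was higher in the cultured than in the sorted groups. Their summed signal over 7 tested markers was 749 to 904 in NB_FACS, 10600 to 14700 in NB_Control, 5910 to 13800 in NB_Stim and 163 to 422 in A_FACS, with all 7 well above background on every cultured array and Col3a1 and Lum on no adult array. Of the 7, 4 were called higher in NB_Control than in NB_FACS and 6 in NB_Stim than in NB_FACS, with 0 called lower in either. Pdgfrb went against the sum, with group means of 6.09 in A_FACS, 4.40 in NB_FACS and 4.24 in both cultured groups. The part of fibroblasts in the result was not tested. The probe and promoter of C3 are shown as those of a gene that was higher in culture.
C3 probe: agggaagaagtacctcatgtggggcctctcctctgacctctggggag
C3 promoter, chr17:57228087-57228386 (minus strand): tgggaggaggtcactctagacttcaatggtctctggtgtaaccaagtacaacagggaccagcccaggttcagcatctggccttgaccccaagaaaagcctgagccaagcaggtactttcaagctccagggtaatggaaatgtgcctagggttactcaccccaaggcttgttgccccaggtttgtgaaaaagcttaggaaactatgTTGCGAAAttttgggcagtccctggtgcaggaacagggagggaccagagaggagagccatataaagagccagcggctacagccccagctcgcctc
Of the 4 motifs, the window held 1 match, to the C/EBP letters, which 10.8% of the windows hold. It began 45 bases before the gene start.

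Cfp, which encodes properdin, the stabiliser of the alternative route, showed the widest range of the 9 genes. It was 7.56 and 7.69 in A_FACS, 8.03, 8.15 and 8.88 in NB_FACS, 15.72, 15.90 and 13.94 in NB_Control, and 13.32, 13.36 and 12.80 in NB_Stim. Every cultured array was above every sorted array, and each NB_Control array was above each NB_Stim array. Cfp was 114-fold higher in NB_Control than in NB_FACS (log2 difference 6.83, SE 0.46, adjusted p 6.22e-06) and 28.0-fold higher in NB_Stim than in NB_FACS (4.81, SE 0.46, adjusted p 5.24e-05), and both calls were kept under each of 23 other settings. With cytokines Cfp fell by 2.03 against NB_Control (SE 0.46, 4.07-fold, adjusted p 0.0459). That call was less firm and was lost under 13 of 23 other settings. These included no filter on dim probes, only the groups compared, averaged cultured replicates and the study's Tukey test. The call was lost when any single array other than NB_FACS replicate 3 or NB_Control replicate 3 was left out (differences of -2.10 to -1.68). Without NB_Control replicate 3 the difference was -2.66. A_FACS was 0.73 below NB_FACS without a call (SE 0.52, adjusted p 0.363).

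Markers of border macrophages, the macrophages of the meninges and vessels, moved in both directions. Their signal summed over 8 markers was 11400 to 13900 in NB_FACS, 44300 to 87600 in NB_Control, 19400 to 32800 in NB_Stim and 298 to 767 in A_FACS. Single markers went against the sum. Of the 8, 3 were called higher and 3 lower in NB_Control than in NB_FACS (median 0.40), and 3 higher and 4 lower in NB_Stim than in NB_FACS (median -2.85). Group means of Pf4 were 10.42 in NB_FACS, 15.13 in NB_Control and 14.27 in NB_Stim, while those of Cbr2 were 9.09, 5.94 and 2.75. Lyve1 was well above background on no NB_Control array and Cd163 on no NB_Stim array. Neutrophils also make properdin. The summed signal of 7 neutrophil markers, 6 of them tested, was 487 to 6710 in NB_FACS, 1100 to 1370 in NB_Control, 1810 to 2130 in NB_Stim and 495 to 1390 in A_FACS. S100a9 was well above background on no cultured array. S100a8 was well above background on every cultured array, with group means of 7.90 in NB_FACS, 8.90 in NB_Control and 10.42 in NB_Stim. None of the 6 tested markers was called between NB_FACS and either cultured group. The part of these cells in the level of Cfp was not tested. The promoter window of Cfp, the gene with the largest difference, held no match to any of the 4 motifs.
Cfp promoter, chrX:20931506-20931805 (minus strand): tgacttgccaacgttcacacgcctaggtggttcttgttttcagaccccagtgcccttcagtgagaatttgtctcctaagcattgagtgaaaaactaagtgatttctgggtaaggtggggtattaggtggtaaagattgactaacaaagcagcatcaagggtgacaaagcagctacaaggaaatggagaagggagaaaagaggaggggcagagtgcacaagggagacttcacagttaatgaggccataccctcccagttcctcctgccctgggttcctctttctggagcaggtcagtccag

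The receptors for the cleaved fragments were higher in NB_Control than in sorted newborn cells and lower again with cytokines. C3ar1, the receptor for C3a, was 11.68 and 11.60 in A_FACS, 12.12, 11.89 and 12.15 in NB_FACS, 12.81, 12.79 and 12.44 in NB_Control, and 11.96, 12.10 and 12.05 in NB_Stim. C5ar1, the receptor for C5a, was 4.71 and 4.59 in A_FACS, 5.62, 5.41 and 5.64 in NB_FACS, 6.03, 5.86 and 6.18 in NB_Control, and 5.22, 5.03 and 5.41 in NB_Stim. For both genes all NB_Control arrays were above all other arrays and both adult arrays were below all others. C3ar1 rose by 0.62 in NB_Control against NB_FACS (SE 0.14, 1.54-fold, adjusted p 0.00748), a call lost in 1 of 23 settings, when cultured replicates 1 and 2 were averaged. It fell by 0.64 with cytokines (SE 0.14, adjusted p 0.0389), to within 0.02 of NB_FACS (95% interval -0.33 to 0.30). C5ar1 rose by 0.47 in NB_Control (SE 0.15, 1.38-fold, adjusted p 0.0378) and fell by 0.80 with cytokines (SE 0.15, 1.75-fold, adjusted p 0.0171). NB_Stim was then 0.34 below NB_FACS for C5ar1 (adjusted p 0.113), which was called with the replicate number as a block (adjusted p 0.0229).

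The cytokine calls of both receptors depended on single arrays and on the processing. Both were lost with only the groups compared, with cultured replicates 1 and 2 averaged and with the study's Tukey test. That of C3ar1 was also lost with no filter on dim probes, and that of C5ar1 with 75th percentile scaling. For C3ar1 the call was lost without any single array other than NB_FACS replicate 3 or NB_Control replicate 3 (differences of -0.67 to -0.58). For C5ar1 it was lost without NB_Control replicate 1 (-0.80) or 3 (-0.73) and without NB_Stim replicate 1 (-0.80) or 2 (-0.71). The rise of C5ar1 in NB_Control was lost without A_FACS replicate 1 (0.47), NB_FACS replicate 1 (0.50) or 2 (0.39), NB_Control replicate 1 (0.46) or 3 (0.39), or NB_Stim replicate 1 (0.46). With 75th percentile scaling C5ar1 was not called for culture (0.38, adjusted p 0.14) or cytokines (-0.69, adjusted p 0.0606). C5ar1 in A_FACS was -0.91 from NB_FACS (SE 0.16, adjusted p 0.00372). It was called as lower under each of 23 other settings (-0.98 to -0.36), but did not reach a log2 difference of 1. C3ar1 was 0.42 lower (adjusted p 0.0875) without a call, which it gained with 75th percentile scaling (-0.61, adjusted p 0.0186) and with normexp (-0.40, adjusted p 0.0315). The probe of C5ar1 was dim on every array, ranking between 27024 and 37323 of 59899, and the probe of C3ar1 was bright, between 1246 and 2952.

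Itgam, which encodes the CD11b chain of complement receptor 3, was highest in adult cells. It was 12.13 and 11.99 in A_FACS, 11.09, 10.87 and 10.93 in NB_FACS, 11.38, 11.47 and 10.22 in NB_Control, and 11.19, 11.20 and 11.68 in NB_Stim. Both adult arrays were above every newborn array, and NB_Control replicate 3 was the lowest of all. A_FACS exceeded NB_FACS by 1.09 (SE 0.34, 2.14-fold, adjusted p 0.0421). With the replicate number as a block the call was lost (adjusted p 0.068), as it was without either adult array, any NB_FACS array or NB_Stim replicate 1 or 2, with values of 1.03 to 1.17 over these arrays, and with 75th percentile scaling (0.92, adjusted p 0.0736). Itgam did not pass the test between NB_Control and NB_FACS (0.06, 95% interval -0.62 to 0.73), where the difference was 0.44 within slide 1 and -0.71 within slide 2.

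Its partner chain Itgb2 followed another course. Itgb2 was 12.39, 12.42 and 11.84 in NB_FACS, 13.60, 13.57 and 13.33 in NB_Control, 13.76, 13.72 and 13.20 in NB_Stim, and 13.79 and 13.81 in A_FACS. Every array of the other groups was above every NB_FACS array. The differences from NB_FACS were 1.29 in NB_Control (adjusted p 0.00103), 1.34 in NB_Stim (adjusted p 0.000804) and 1.58 in A_FACS (adjusted p 0.00109), and all 3 calls were kept under every setting tried. Whether the chains differed from each other in these comparisons was not tested.

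**Figure D2:**
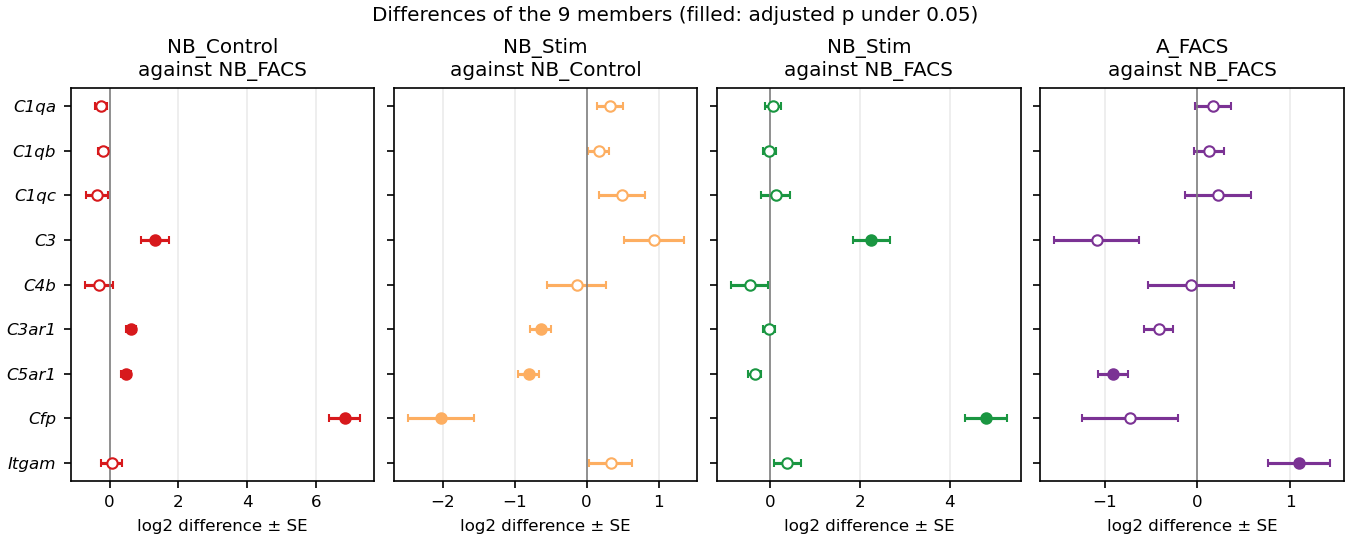
Log2 difference of the 9 genes (y axis) in 4 comparisons, with bars for the standard error (x axis, a range of its own in each panel) and filled points for genes called at an adjusted p under 0.05. Cfp lies at 6.83 and 4.81 in the comparisons of cultured with sorted newborn cells, and the C1q genes and C4b lie between -0.45 and 0.49 with open points throughout.

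Counted over the 9 genes, 4 were called over the 4 groups by the F test (C3, C3ar1, C5ar1, Cfp), where 48.8% of all genes were called, and Itgam had an adjusted p of 0.0695. In NB_Control 4 of the 9 were higher than in NB_FACS (Cfp, C3, C3ar1, C5ar1), where 29.7% of all genes were called, 15.8% higher and 13.9% lower. The groups did not overlap for 5 of the 9, beside 44.2% of all genes, and the median difference was 0.06 over the 9 genes and 0.09 over all genes. With cytokines, NB_Stim had 3 of the 9 lower than NB_Control (Cfp, C3ar1, C5ar1), where 3.4% of all genes were called, 1.4% higher and 2% lower. Here 5 of the 9 did not overlap, beside 24% of all genes, and the medians were 0.17 and -0.00076. Against NB_FACS, NB_Stim had 2 of the 9 higher (Cfp, C3), where 31.1% of all genes were called, 16% higher and 15.1% lower. The groups did not overlap for 4 of the 9, beside 43.5%, with medians of 0.07 and 0.11, and with the replicate number as a block C5ar1 was called as lower besides. Between A_FACS and NB_FACS 2 of the 9 were called (Itgam higher, C5ar1 lower), where 22.7% of all genes were called, 9.75% higher and 12.9% lower. The groups did not overlap for 6 of the 9, beside 51.2%, and the medians were -0.07 and -0.01.

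As the 9 genes were chosen with earlier results of these data known, the counts and shares describe these genes only. The counts also depended on single arrays. The limma count with cytokines was 0 without NB_Control replicate 1, NB_Stim replicate 1 or NB_Stim replicate 2, where 3 to 4 of the 9 had an unadjusted p under 0.05, and 1 without NB_Control replicate 2, NB_Stim replicate 3, either adult array, or NB_FACS replicate 1 or 2. The count of 4 in NB_Control fell to 2 without A_FACS replicate 1, NB_FACS replicate 1 or 2, or NB_Control replicate 1. The adult count of 2 was 1 without either adult array, any NB_FACS array, or NB_Stim replicate 1 or 2, and 3 without NB_Control replicate 3.

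Adult cells were also set against cultured cells, with which they share neither age nor handling. Of the 9 genes, 5 differed between A_FACS and NB_Control, where 40.8% of all genes were called, 17.7% higher and 23.2% lower, and 7 of the 9 did not overlap, beside 66.4%. Cfp (-7.56, adjusted p 5.8e-06), C3 (-2.41, adjusted p 0.00233), C5ar1 (-1.37, adjusted p 0.000157) and C3ar1 (-1.04, adjusted p 0.000606) were lower in adult cells under every setting tried. Itgam was higher by 1.04 (adjusted p 0.0327), a call lost with the replicate block (adjusted p 0.0586), with 75th percentile scaling (0.81, adjusted p 0.0759) and without A_FACS replicate 1 (0.97) or 2 (1.11), and the difference was 0.64 without NB_Control replicate 3. Against NB_Stim 3 of the 9 were lower in adult cells, where 40.2% of all genes were called, 17.5% higher and 22.8% lower, and 5 of the 9 did not overlap, beside 63%. These were Cfp (-5.53, adjusted p 4.09e-05), C3 (-3.34, adjusted p 0.000381) and C5ar1 (-0.57, adjusted p 0.0204), the last lost with 75th percentile scaling (-0.40, adjusted p 0.14), with normexp (-0.21, adjusted p 0.06) and without A_FACS replicate 1 (-0.64) or 2 (-0.51) or NB_Stim replicate 1 (-0.57). Without NB_Control replicate 3 the count was 5, with C3ar1 (-0.40, adjusted p 0.0421) and Itgam (0.70, adjusted p 0.0128) added. All these comparisons share groups, so their values are not independent.

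**Figure D3:**
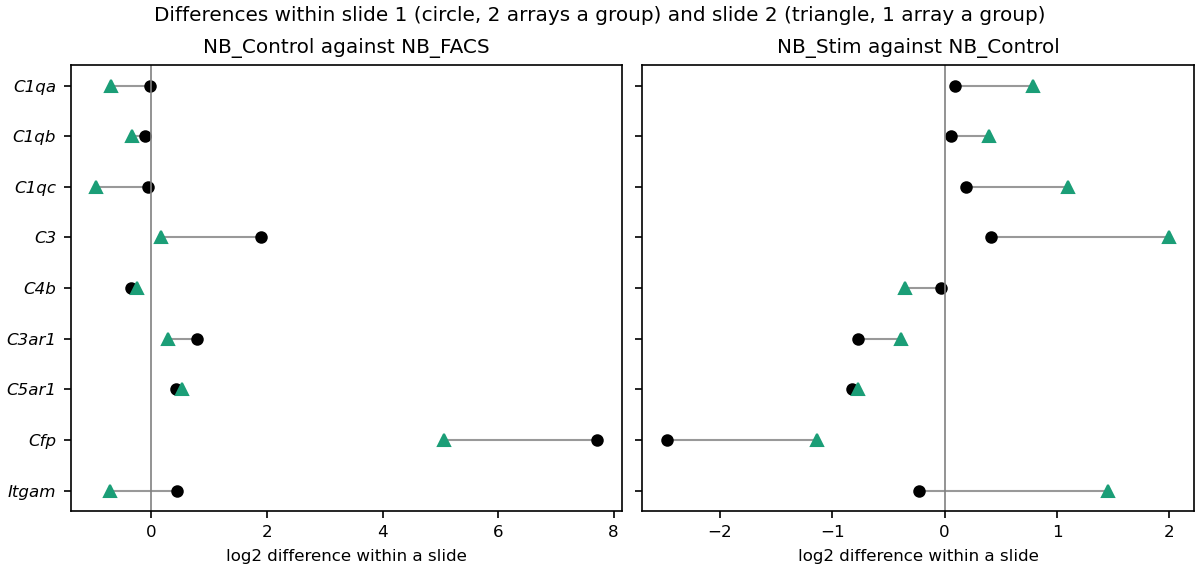
Log2 difference of the 9 genes (y axis) within slide 1, with 2 arrays a group (circles), and within slide 2, with 1 array a group (triangles), for culture (left) and for cytokines (right). C5ar1 differs least between slides among the called genes (0.43 and 0.54 for culture), while C3 differs by 1.90 on slide 1 and 0.17 on slide 2.

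The slides were compared because replicate 3 of each newborn group was hybridised apart from the rest. For culture, Cfp was 7.72 higher in NB_Control within slide 1 and 5.07 higher within slide 2, C3ar1 0.79 and 0.29 higher, C5ar1 0.43 and 0.54 higher, and C3 1.90 and 0.17 higher. Each of these 4 differences kept its direction on both slides, and that of C3 was the least even. With cytokines, Cfp was -2.47 within slide 1 and -1.14 within slide 2, C3ar1 -0.77 and -0.39, and C5ar1 -0.82 and -0.77. The C1q genes were nearly level within slide 1, with culture differences of -0.03 for C1qa, -0.11 for C1qb and -0.06 for C1qc, and lower within slide 2, at -0.70, -0.34 and -0.96. Slide 2 holds 1 array a group and allows no test of its own.

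The other genes of the system were followed on a list of 48, of which 43 had a probe and 33 passed the filter. In NB_Control 14 of the 33 differed from NB_FACS, 8 higher and 6 lower (median 0.17), a share of 42.4% beside 29.7% of all genes. The serine proteases that C1q carries were higher. C1ra and C1rb, the copies of C1r, exceeded NB_FACS by 1.51 (adjusted p 0.00492) and 1.54 (adjusted p 0.000275), and C1s1 by 2.31 (adjusted p 0.00149), although C1s1 was well above background on only 1 of 3 NB_FACS arrays and its difference ran from 0.37 to 2.56 over the settings tried. C1ra and C1rb are near copies, and whether their probes share signal was not tested. Serping1, the inhibitor of these proteases, was 5.09, 5.39 and 5.20 in NB_FACS, between 6.76 and 7.55 in NB_Control, and 4.59, 5.26 and 5.87 in NB_Stim. Its rise of 1.87 in NB_Control (adjusted p 0.00429) placed every NB_Control array above every array of the sorted newborn cells. The proteases and their inhibitor are also made by fibroblasts, whose summed marker signal was higher in NB_Control as given above. The part of such cells was not tested. Also higher were Itgb2, C8g, which encodes a chain of C8 (0.69), and Cd59a, which blocks the membrane attack complex (1.54). Cr2, the receptor for cleaved C3 on B cells, was called too, but was well above background on only 1 of 3 NB_FACS arrays, so the size of its difference is uncertain, and the call was lost with normexp (0.21), with no filter on dim probes (0.47) and without A_FACS replicate 1 (0.54).

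The 6 genes lower in NB_Control were Vtn, Cfb, Cpn1, Hc, Itgad and C1qbp. Vtn, which encodes vitronectin, fell by 3.31 (adjusted p 1.07e-05), Cfb, the enzyme of the alternative route, fell by 2.84 (adjusted p 0.00199), Cpn1, which inactivates C3a and C5a, fell by 1.90 (adjusted p 0.00093) and Hc, the gene for C5, fell by 2.12 (adjusted p 0.0289), with Hc well above background on 1 of 3 NB_Control arrays. The call of Hc was lost without any single NB_FACS array, or NB_Control replicate 1 or 3 (-2.29 to -1.64), and that of Cd59a without NB_FACS replicate 1 or 2, any single NB_Control array, or NB_Stim replicate 1 or 2 (1.18 to 1.68). Itgad, an integrin chain, fell by 1.58 (adjusted p 0.0273), but was 0.31 higher with the brightest probe of the gene or with probes above background on all arrays alone, and lost its call without any single NB_FACS array or NB_Control replicate 1 or 2 (-1.71 to -1.34). C1qbp, a mitochondrial protein that binds C1q, fell by 0.64 (adjusted p 0.0029). Liver cells make several of these proteins. The summed signal of the 4 hepatocyte markers, 2 of them tested, was 15900 to 54400 in NB_FACS, 16600 to 123000 in A_FACS, 328 to 2160 in NB_Control and 982 to 4610 in NB_Stim, with Alb well above background on no cultured array. This sum was nearly all Ttr, also a gene of the choroid plexus, at a mean of 15.05 in NB_FACS and 15.46 in A_FACS, where Alb was at 4.39 and 4.16. Endothelial markers (4860 to 6630 in NB_FACS, 988 to 1120 in NB_Control) and erythroid markers (149000 to 205000 and 190 to 212) were lower in the same comparison, with 4 of 6 called lower in each list. The part of any of these cells was not tested.

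**Figure D4:**
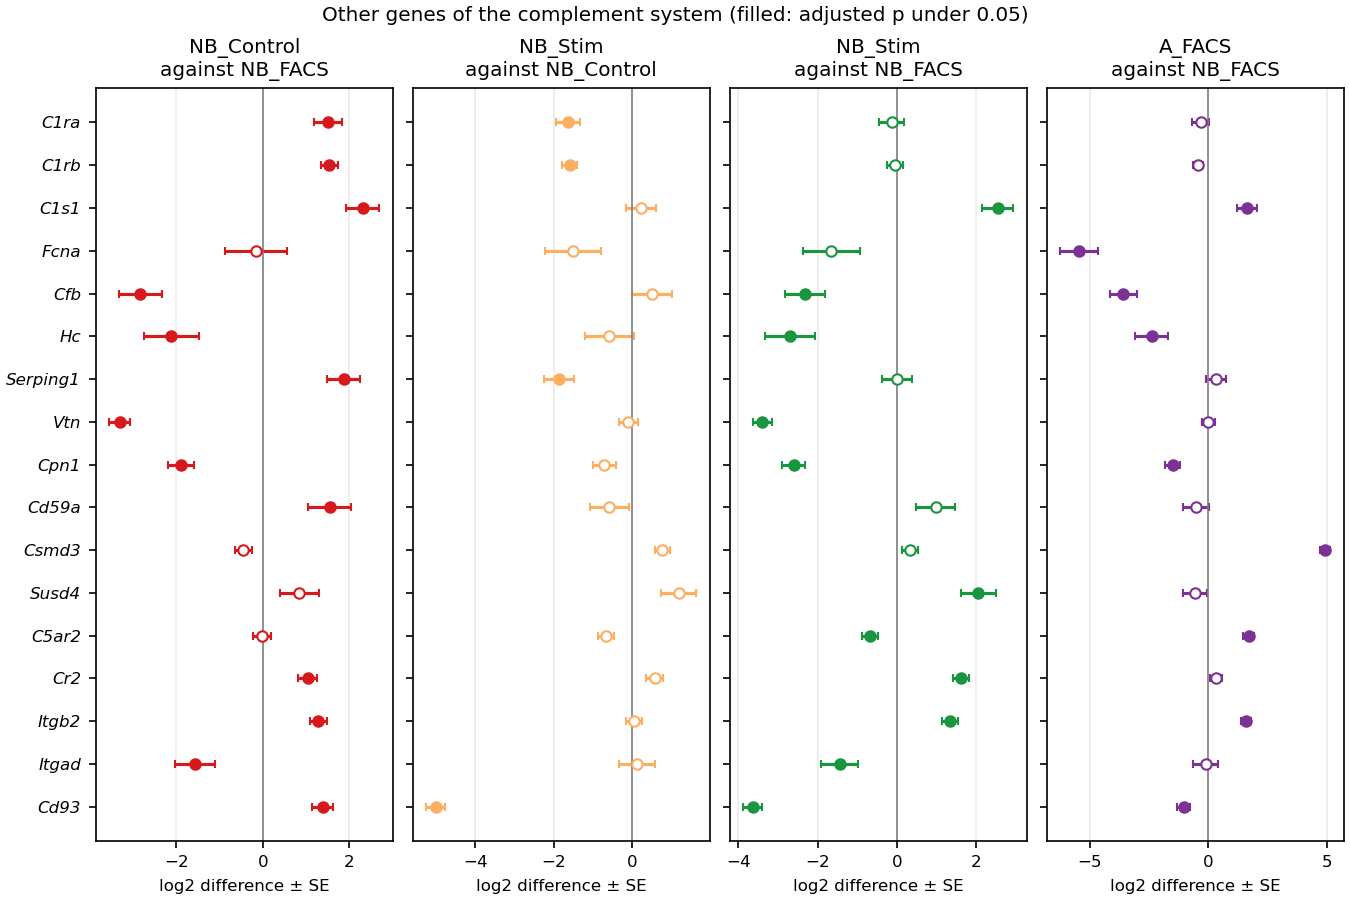
Log2 difference of other genes of the complement system (y axis) in 4 comparisons, with bars for the standard error (x axis, a range of its own in each panel) and filled points for genes called at an adjusted p under 0.05. C1ra, C1rb and Serping1 are higher in NB_Control and lower with cytokines, Cd93 falls by 5.02 with cytokines, and Csmd3 and Fcna lie at 4.92 and -5.45 in adult cells.

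With cytokines 4 of the 33 fell (median 0.06), a share of 12.1% beside 3.4% of all genes. C1ra fell by 1.63 (adjusted p 0.0216), C1rb fell by 1.58 (adjusted p 0.00222) and Serping1 fell by 1.87 (adjusted p 0.0287), and all 3 were then within 0.13 of NB_FACS. The call of C1ra was lost without NB_Control replicate 1 or 2 or NB_Stim replicate 2 or 3 (-1.57 to -1.40), and that of Serping1 without NB_FACS replicate 2, any single NB_Control array, or NB_Stim replicate 1 or 2 (-2.02 to -1.54). Cd93, a surface protein once taken for a C1q receptor and followed beside the list of 33, was 10.87, 10.39 and 10.83 in NB_FACS, 12.04, 11.78 and 12.42 in NB_Control, and 6.96, 7.07 and 7.15 in NB_Stim. It fell 32.4-fold with cytokines (log2 difference -5.02, SE 0.24, adjusted p 1.14e-05), a call kept under every setting tried.

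Against NB_FACS, NB_Stim differed in 15 of the 33, 6 higher and 9 lower (median 0.16), a share of 45.5% beside 31.1%. Susd4, a membrane inhibitor (2.05), and Itgb2 (1.34) were higher, and Vtn (-3.39), Hc (-2.69), Cpn1 (-2.60) and Cfb (-2.32) were lower. C1s1 and Cr2 were called as higher, but over NB_FACS values of which only 1 of 3 was well above background for each gene, and their differences ran from 0.45 to 2.92 and from 0.40 to 1.86 over the settings tried, with Cr2 not called without A_FACS replicate 1 (0.80) or with no filter on dim probes (0.68). C5ar2, the other C5a receptor, was 0.68 lower (adjusted p 0.0297), which was lost without any single NB_FACS array or NB_Stim replicate 1 or 3 (-0.70 to -0.54). Hc was well above background on 1 of 3 NB_Stim arrays.

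Between A_FACS and NB_FACS 12 of the 33 differed, 6 higher and 6 lower (median -0.10), a share of 36.4% beside 22.7%. Csmd3, a membrane protein of the complement inhibitor family, was 7.71 and 7.22 in A_FACS and 2.45, 2.61 and 2.57 in NB_FACS, well above background on 2 of these 3 (difference 4.92, adjusted p 2.86e-06, with 1.92 to 5.20 over the settings tried). C5ar2 was 1.70 higher (adjusted p 0.000766) and Itgb2 1.58 higher, and for both genes the adult arrays were above every NB_FACS array. C5ar2 was thus higher and C5ar1 lower in adult cells, and the genes lie next to each other on chromosome 7. Fcna, a lectin that starts the lectin route, was 4.11 and 4.18 in A_FACS and 8.87, 9.44 and 10.49 in NB_FACS, and fell by 5.45 (adjusted p 0.00125). Cfb was 12.1-fold lower (adjusted p 0.0017) and Cpn1 fell by 1.51 (adjusted p 0.00965). Hc was well above background on no adult array, and its difference there was -2.40 (adjusted p 0.0347). The difference ran from -2.76 to -0.66 over the settings tried, so its size is uncertain. Its call was lost with 75th percentile scaling (-2.01) and with no filter on dim probes. C1s1 was 1.62 higher (adjusted p 0.0243) and Cd46 1.47 higher (adjusted p 0.0408), each well above background on only 1 of 3 NB_FACS arrays, and with normexp neither was called (0.20 and 0.22). Single arrays ended some of these calls: A_FACS replicate 1 that of Cpn1 (-0.97 without it), either adult array or NB_FACS replicate 2 that of C1s1 (1.34 to 1.56), either adult array, any NB_FACS array or NB_Control replicate 1 that of Hc (-2.76 to -2.09), and any array other than NB_FACS replicate 3 or NB_Stim replicate 3 that of Cd46 (1.13 without NB_FACS replicate 1).

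The genes with the pattern most like each member were found by the mean absolute difference between profiles over the 11 arrays, each centred on its mean of group means, among 15001 genes well above background on all arrays. For Cfp they were Adam8 (0.623), Clec4n (0.721) and Col5a2 (0.759), beside a typical distance of 3.01. Those of C3 were Cxcr4 (0.228), Bsx (0.229) and Mir5134 (0.263), beside 1.18. Nearest to C3ar1 lay Arhgdib (0.0989), Scpep1 (0.118) and 2810025M15Rik (0.119), and C5ar1 had Ugt1a9 (0.123), Nsmce2 (0.126) and Gnpda1 (0.129). Itgam had Zfp341 (0.163), Tuba1a (0.171) and Snx18 (0.188), and C4b had Wipf3 (0.212), Stap2 (0.23) and Mpzl1 (0.233). The flat profiles of the C1q genes had many near ones, led by Rsad1 (0.0904) for C1qa, Nup153 (0.0527) for C1qb and Chst15 (0.114) for C1qc. Among the members themselves C1qa and C1qb were closest (0.174, rank 589 among the genes near C1qa), followed by C1qa and C1qc (0.191) and by C3ar1 and C5ar1 (0.214). These distances describe the 11 arrays only.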

How the data were processed

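Total RNA was hybridised to 11 single-colour Agilent arrays. The authors deposited scanner output of Agilent Feature Extraction (11.5.1.1 per the file headers), whose intensity values are background-subtracted within an array and not normalised between arrays. The deposited table of the whole series held the same intensities (0 values differed). From these, unflagged spots were averaged per probe on the log2 scale and all probes were quantile normalised, as in the study's methods. Of 60037 distinct probes, 36264 (60.4%) matched a RefSeq symbol. Probes were kept if all arrays of 1 group or more flagged them as well above background, and were then averaged per gene, which left 19565 genes. The 4 groups were fitted together with limma 3.58.1 in R 4.3.3 (7 residual degrees of freedom, 2.69 prior), with a two-sided test and Benjamini-Hochberg adjustment within each comparison. The script was tested on simulated data.

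The named genes were all 9 members, up to 8 called genes of the wider list per comparison by size of difference with Itgb2, Serping1, C5ar2 and Cd93, the 3 nearest patterns per member, and Tmem119 and P2ry12. Other called genes of the wider list were named after their values were seen, and some genes that the rule names are not reported here. The members and lists were chosen with earlier results of these data known. The main fit had no pairing, and the replicate number entered as a block only as an alternative. Deviations of same-numbered newborn samples from their group means correlated at 0.112 to 0.489 in all 9 pairs, against -0.448 to 0.364 in 18 other pairs. These values cannot tell pairing from slide, since number 3 always went with slide 2. Within slide 1 the same number did not always give the higher value. NB_FACS replicate 1 correlated at 0.358 with NB_Control replicate 1 and 0.188 with replicate 2. NB_FACS replicate 2 correlated at 0.112 with NB_Stim replicate 2 and 0.199 with replicate 1. Alternatives covered scaling, background correction, filters, probe choice, blocks, tests and each array left out, and the use of slide 1 alone was chosen after seeing the data.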

Additional observations from a re-analysis of the deposited data

How the results depend on the processing

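Over the alternatives tried, all 437 values of called members kept their direction and 356 kept the call, and of 805 values of uncalled members 771 kept their direction and 782 stayed uncalled. The cause of each change below was not tested, apart from fewer samples where arrays were left out. Directions turned in these small differences: with 75th percentile scaling C1qc in A_FACS (-0.0022) and NB_Stim (-0.0918) and C4b in A_FACS (0.0454) against NB_FACS, and C4b in NB_Stim against NB_Control (0.0165); with normexp C1qb (0.032) and C3ar1 (0.0094) in NB_Stim and C4b in A_FACS (0.0332) against NB_FACS; on slide 1 alone C3ar1 in NB_Stim (0.0253) and C4b in A_FACS (0.0962) against NB_FACS, C1qc in A_FACS against NB_Stim (-0.0218) and Itgam with cytokines (-0.2306); with cultured replicates 1 and 2 averaged C1qb in NB_Stim (0.0465) and Itgam in NB_Control (-0.1434) against NB_FACS. With the replicate number as a block, and with the slide as a block, C4b in A_FACS against NB_FACS was 0.0798 and C1qc in A_FACS against NB_Stim -0.1267, and the calls the replicate block changed among the members are given with the results. Leaving out 1 array gave ranges across 0 for C1qb in NB_Stim against NB_FACS (-0.1455 to 0.077), C1qc in A_FACS against NB_Stim (-0.1297 to 0.3152) and in NB_Control against NB_FACS (-0.5771 to 0.0606), C3ar1 in NB_Stim against NB_FACS (-0.0962 to 0.0334), C4b in A_FACS against NB_Control (-0.7235 to 1.2133), NB_FACS (-1.0406 to 0.8983) and NB_Stim (-0.5838 to 1.3521) and with cytokines (-0.2398 to 0.0534), and Itgam in NB_Control against NB_FACS (-0.1646 to 0.4567) and with cytokines (-0.0683 to 0.5535).

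Counts of calls moved by over 1.5 times as follows, with the comparisons in the order NB_Control and NB_Stim against NB_FACS, cytokines, and A_FACS against NB_FACS, NB_Control and NB_Stim. Over all genes the main counts were 5813, 6086, 666, 4437, 7984 and 7871. They became 3160, 3217, 425, 2409, 4804 and 4539 with a log2 difference of at least 1 required, and 3548, 3621, 183, 2015, 4881 and 4655 with the methods' Tukey test. With only the groups compared A_FACS against NB_FACS gave 2925. The cytokine count was 1032 on slide 1 alone, 1008 with normexp, 1192 with the replicate block, 1474 with the slide block and 118 with cultured replicates averaged. Among the 9 members, NB_Control against NB_FACS gave 2 with the size limit, the groups compared alone or the Tukey test and 1 with replicates averaged. Cytokines gave 1 with the size limit or no filter, and 0 with the groups compared alone, the Tukey test or replicates averaged, where limma's unadjusted p was under 0.05 for 3 and 4 members in the first and last and the Tukey p for 3. A_FACS against NB_FACS gave 1 with the size limit, no filter, the Tukey test or replicates averaged and 4 on slide 1 alone, and A_FACS against NB_Stim gave 5 there. Of the wider list, the Tukey test called 8, 9, 2, 6, 10 and 9. A_FACS against NB_FACS gave 7 with probes above background on all arrays. Cytokines gave 8 with 75th percentile scaling, 7 with the slide block, 2 with the groups compared alone and 0 with replicates averaged, where 8 had an unadjusted limma p under 0.05. Without single arrays the members' counts ran from 2 to 4 in NB_Control against NB_FACS, 0 to 3 with cytokines, 1 to 3 in A_FACS against NB_FACS and 2 to 5 against NB_Stim. Those of the wider list ran from 2 to 5 with cytokines and from 11 to 18 in A_FACS against NB_Control and against NB_Stim. Over all genes they ran from 297 to 699 with cytokines and, in A_FACS, from 2285 to 5136 against NB_FACS, 5040 to 8713 against NB_Control and 4685 to 8379 against NB_Stim. Dim probes, C5ar1 and C4b among the members, carry the least signal over background.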
